A study of Mus musculus with 8 samples.

Results

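Zinc and copper transport genes and metallothioneins were examined in intestinal epithelial cells of lactating mice, with 10 genes chosen by name: the zinc importers Slc39a4, Slc39a5 and Slc39a14, the exporters Slc30a1 and Slc30a10, the copper transporters Slc31a1 and Atp7a, the transcription factor Mtf1, and the metallothioneins Mt1 and Mt2. They are 10 of the 54532 genes in the count table, and all 10 were among the 9855 genes that passed the filter on low counts. The table held 8 libraries, 4 from WT and 4 from Rank-knockout mice, each mouse at lactation day 5. Per the study's methods, Rank (gene symbol Tnfrsf11a, the receptor activator of NF-κB) was deleted by crossing a floxed allele to a Cre line driven by the Villin1 promoter, which is active in intestinal epithelium, on a C57BL/6J background, with age-matched female littermates as controls. The alleles that these WT animals carried, the age of each animal and the stretch of intestine sampled are not given in the sources used here beyond the words WT and intestine. Values are reads from the 3′ ends of mRNAs, called tags here, given as CPM, counts divided by the TMM-scaled library size and set to a common depth.

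Zinc enters the enterocyte through ZIP proteins (the Slc39 family), which move the metal into the cytosol, and leaves through ZnT proteins (the Slc30 family), which move it out of the cytosol into vesicles or out of the cell. ZIP4, encoded by Slc39a4, is the main importer at the brush border, and its loss in humans causes acrodermatitis enteropathica. Copper enters through CTR1, encoded by Slc31a1, and is passed to the blood side by the copper ATPase ATP7A, whose loss causes Menkes disease. MTF1 senses cytosolic zinc, binds metal response elements in promoters, and drives the metallothioneins, which bind zinc and copper, and the exporter Slc30a1. The abundance of metallothionein transcripts is therefore widely used as a readout of free zinc in cells.

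The promoters of 4 genes are shown, those of the metallothioneins and of both ZnT genes among the 10. They are shown because they carry matches to the metal response element core. Each is the 250 bases before the transcription start in RefSeq (GRCm38.p6, plus strand, 5′ to 3′), and capitals mark matches to TGCACNC or TGCGCNC on either strand. The windows lie at chr8:94178839-94179088 for Mt1, chr8:94172368-94172617 for Mt2, chr1:191906531-191906780 for Slc30a1 and chr1:185454598-185454847 for Slc30a10.
Mt1: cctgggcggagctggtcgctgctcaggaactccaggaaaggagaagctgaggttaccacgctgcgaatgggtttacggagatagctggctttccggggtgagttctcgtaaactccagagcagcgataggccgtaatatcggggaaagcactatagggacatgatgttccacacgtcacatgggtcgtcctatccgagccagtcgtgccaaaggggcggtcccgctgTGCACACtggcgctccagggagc
Mt2: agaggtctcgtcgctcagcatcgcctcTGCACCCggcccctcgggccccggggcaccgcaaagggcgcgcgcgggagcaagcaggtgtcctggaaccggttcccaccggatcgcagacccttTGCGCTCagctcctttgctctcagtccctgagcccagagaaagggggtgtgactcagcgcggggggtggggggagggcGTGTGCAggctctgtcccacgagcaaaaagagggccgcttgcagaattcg
Slc30a1: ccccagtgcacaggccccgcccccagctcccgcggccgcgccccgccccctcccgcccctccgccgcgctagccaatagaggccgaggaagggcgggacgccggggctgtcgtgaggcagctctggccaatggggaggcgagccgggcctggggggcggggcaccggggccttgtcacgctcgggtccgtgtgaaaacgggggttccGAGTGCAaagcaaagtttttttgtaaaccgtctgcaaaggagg
Slc30a10: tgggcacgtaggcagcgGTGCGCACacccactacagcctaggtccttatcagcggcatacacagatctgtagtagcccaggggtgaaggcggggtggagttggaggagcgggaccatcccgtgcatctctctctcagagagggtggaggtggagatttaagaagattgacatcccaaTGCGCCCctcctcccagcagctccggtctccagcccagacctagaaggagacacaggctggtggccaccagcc

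Counted over 300 bases, with the 50 bases after the start added, Mt2 held 4 matches and Mt1 held 3. Slc30a10 held 3 matches, a pair of which overlap in 1 palindrome, and Slc30a1 held 2. Of the other members, Atp7a held 2 matches, Slc39a5 held 1 in its first window and 0 in its second, and Mtf1 and Slc31a1 held 0 in this window. Windows were matched for 8 of the 10 genes. Slc39a4 and Slc39a14 had no window, so their promoters were not examined. Among 32851 windows of the same length, 25.7% held at least 1 match, 7.11% at least 2 and 1.97% at least 3. A match is a stretch of letters and not a measured binding site.

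To ask whether zinc and copper handling differed without epithelial RANK, the counts were compared between genotypes with edgeR's quasi-likelihood test, with Benjamini-Hochberg adjustment of the p-values across the 9855 genes and a threshold of 0.05. Log2 differences are Rank-knockout over WT, so a negative value is a lower level in Rank-knockout. The brush-border zinc importer Slc39a4, the exporter Slc30a10 and the copper transporters Slc31a1 and Atp7a fell in Rank-knockout libraries. The importers Slc39a5 and Slc39a14, the exporter Slc30a1, Mtf1 and both metallothioneins did not pass the test. Of the 10 genes, 4 were called lower, beside 14.6% of all genes tested, and 0 were called higher, beside 15.8%. At an unadjusted p under 0.05, a cutoff not counted over all genes, edgeR gave 5 lower and 1 higher. DESeq2 called 4 of the 10 lower and 0 higher, beside 1483 lower and 1395 higher of the 9855 genes. In 4 of the 10 the genotypes did not overlap in CPM, beside 28.8% of all genes. The median log2 difference was -0.37 over the 10 genes and 0.02 over all genes tested.

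**Figure D1:**
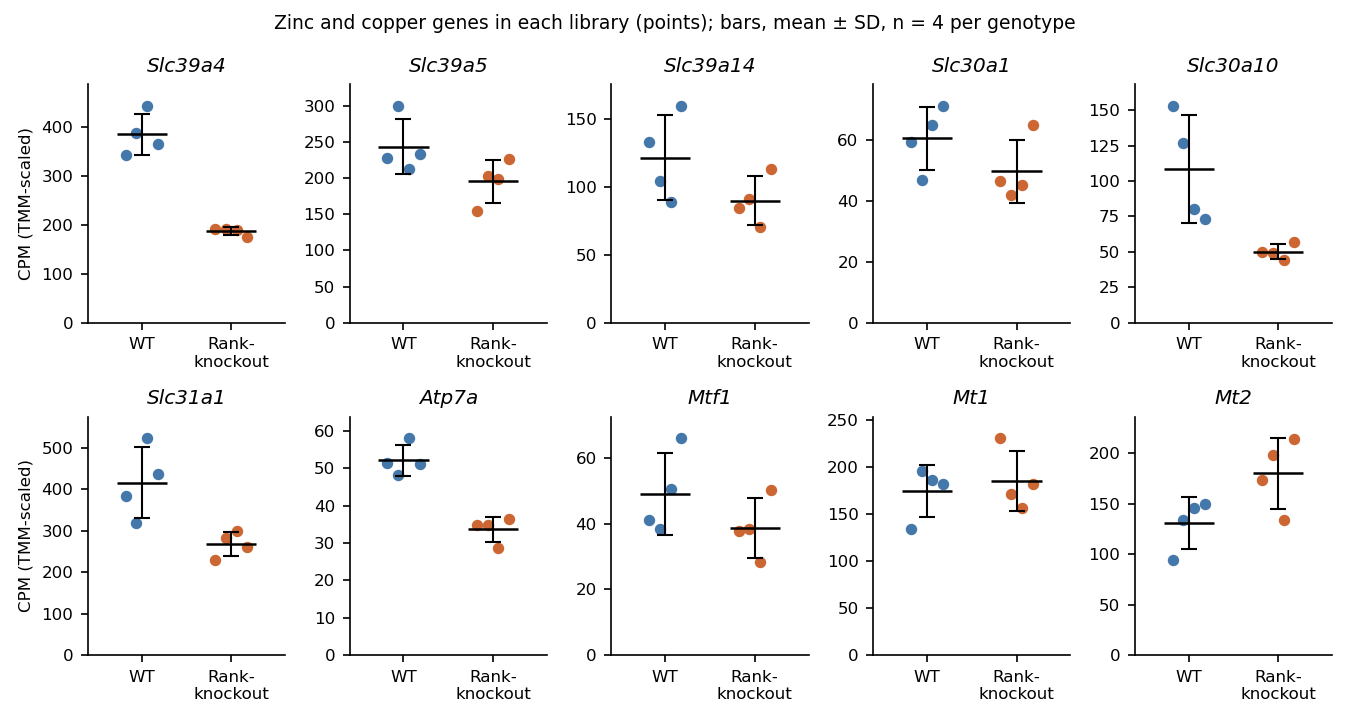
CPM of the 10 zinc and copper genes, with 1 point per library, WT in blue and Rank-knockout in orange, and bars for the mean ± SD of 4 libraries. The 4 Rank-knockout points lie below all 4 WT points for Slc39a4, Slc30a10, Slc31a1 and Atp7a, whereas those of Mt1 and Mt2 overlap with WT.

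Slc39a4 (ENSMUSG00000063354; GRCm38 chromosome 15, 76612383 to 76617384, minus strand) showed the smallest adjusted p of the 10 genes. Its level was 343.2, 388.5, 442.5 and 364.8 CPM in WT replicates 1 to 4, and 192.5, 191.0, 189.7 and 175.8 CPM in Rank-knockout replicates 1 to 4. The lowest WT library thus lay far above the highest Rank-knockout library, and the Rank-knockout libraries were close to each other. The means were 384.7 ± 42.7 and 187.3 ± 7.72 CPM (SD, n = 4 per genotype). The log2 difference was -1.04 (SE 0.13, 95% interval -1.32 to -0.76, edgeR adjusted p = 0.000151), a level 2.05-fold higher in WT.

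Slc39a5 (ENSMUSG00000039878; chromosome 10, 128395931 to 128401229, minus strand) encodes ZIP5, an importer of the basolateral side of enterocytes. Its libraries read 228.1, 299.3, 212.4 and 233.6 CPM in WT and 153.9, 202.6, 198.7 and 226.2 CPM in Rank-knockout. The genotypes overlapped, and the log2 difference of -0.32 (SE 0.15, 95% interval -0.65 to 0.0049) gave an edgeR adjusted p of 0.125.

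Slc39a14 (ENSMUSG00000022094; chromosome 14, 70303469 to 70351425, minus strand) encodes ZIP14, which carries manganese and iron as well as zinc. It read 133.6, 104.7, 89.5 and 159.8 CPM in WT and 84.9, 91.6, 70.6 and 113.6 CPM in Rank-knockout. The ranges overlapped at a log2 difference of -0.43 (SE 0.19, 95% interval -0.83 to -0.03, edgeR adjusted p = 0.0986). It passed the threshold without WT replicate 3, at -0.55 (edgeR adjusted p = 0.0452), or without Rank-knockout replicate 4, at -0.56 (edgeR adjusted p = 0.0359).

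Because Slc39a4 and Slc39a5 were counted in the same libraries, their ratio does not depend on scaling between libraries. Tags of Slc39a4 per tag of Slc39a5 were 1.61 ± 0.33 in WT, from 1.30 to 2.08, and 0.98 ± 0.20 in Rank-knockout, from 0.777 to 1.25 (SD, n = 4). This ratio was lower in every Rank-knockout library than in any WT library, a description with no test. Per tag of Slc39a14, chosen after its values were seen, Slc39a4 ran from 2.283 to 4.947 in WT and from 1.55 to 2.69 in Rank-knockout, and the genotypes overlapped.

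Among the exporters, Slc30a10 (ENSMUSG00000026614; chromosome 1, 185454848 to 185468762, plus strand) fell and Slc30a1 did not pass the test. Slc30a10 encodes ZnT10, known best as a manganese exporter. It read 152.8, 126.7, 80.6 and 73.2 CPM in WT and 49.7, 49.5, 44.1 and 57.2 CPM in Rank-knockout. WT libraries were widely spread, WT replicates 3 and 4 being the nearest to Rank-knockout, but the genotypes did not overlap. The log2 difference was -1.11 (SE 0.21, 95% interval -1.56 to -0.67, edgeR adjusted p = 0.00147), from 108.3 ± 37.9 to 50.1 ± 5.40 CPM (SD, n = 4).

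Slc30a1 (ENSMUSG00000037434; chromosome 1, 191906767 to 191913247, plus strand) encodes ZnT1, the zinc exporter of the basolateral membrane and a target of MTF1. It read 59.6, 46.9, 64.9 and 71.2 CPM in WT and 46.5, 42.0, 45.4 and 65.1 CPM in Rank-knockout. The log2 difference was -0.26 (SE 0.18, 95% interval -0.65 to 0.12, edgeR adjusted p = 0.291) and the genotypes overlapped. Tags of Slc39a4 per tag of Slc30a1 ran from 5.12 to 8.29 in WT and from 2.70 to 4.54 in Rank-knockout. These ranges did not overlap, with means of 6.50 ± 1.38 (WT) and 3.89 ± 0.81 (Rank-knockout; SD, n = 4). Per tag of the other exporter, Slc30a10, the range of Slc39a4 was 2.25 to 5.49 in WT and 3.07 to 4.31 in Rank-knockout, which overlapped, a comparison also made after the values were seen.

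Both copper transporters fell. Slc31a1 (ENSMUSG00000066150; chromosome 4, 62360727 to 62391769, plus strand), the importer, read 385.0, 318.8, 523.1 and 437.3 CPM in WT and 230.5, 283.3, 298.6 and 260.7 CPM in Rank-knockout. WT replicate 2 came nearest to the Rank-knockout range without reaching it. Its log2 difference was -0.63 (SE 0.16, 95% interval -0.97 to -0.29, edgeR adjusted p = 0.00787).

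Atp7a (ENSMUSG00000033792; chromosome X, 106027276 to 106124926, plus strand), the copper exporting ATPase, read 51.4, 48.1, 58.0 and 51.2 CPM in WT and 34.8, 34.9, 28.8 and 36.4 CPM in Rank-knockout. Both genotypes were narrow and lay apart, with a log2 difference of -0.62 (SE 0.16, 95% interval -0.95 to -0.28, edgeR adjusted p = 0.00834). Scaled by library totals instead of TMM, the difference was -0.42 and missed the threshold (edgeR adjusted p = 0.0514). That scaling moved the median of all genes by 0.20, so relative to the median Atp7a differed by about as much in both.

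**Figure D2:**
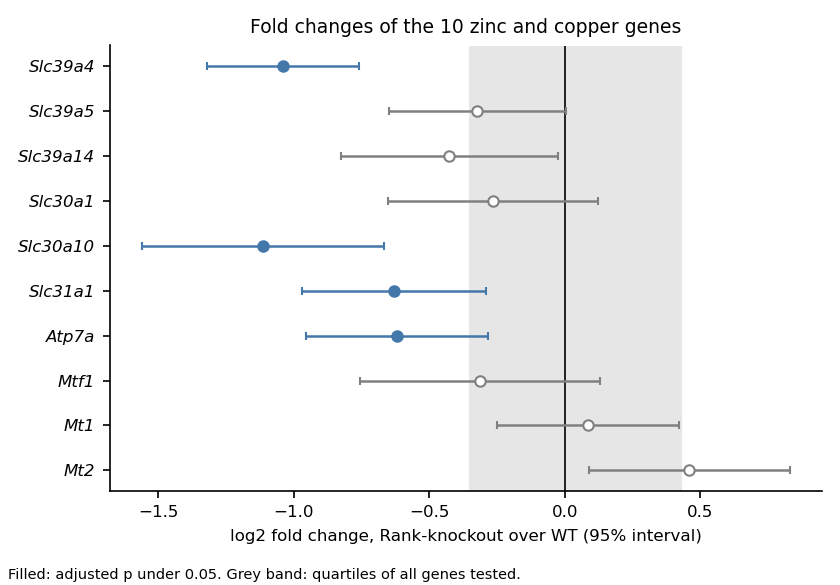
Log2 fold changes of the 10 zinc and copper genes, Rank-knockout over WT, with 95% intervals from edgeR. Filled points passed an adjusted p of 0.05, and the grey band spans the quartiles of all genes tested, -0.35 to 0.43. The filled points of Slc39a4, Slc30a10, Slc31a1 and Atp7a and the open point of Slc39a14 lie below the band, and the open point of Mt2 lies just above it.

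The metallothioneins Mt1 and Mt2, which share the zinc sensor MTF1, did not pass the test. Mt1 (ENSMUSG00000031765; chromosome 8, 94179082 to 94180327, plus strand) read 133.6, 195.9, 185.8 and 181.7 CPM in WT and 230.1, 171.1, 156.5 and 181.6 CPM in Rank-knockout. WT replicate 1 was the lowest library and Rank-knockout replicate 1 the highest, while the others were mixed. The log2 difference of 0.08 (SE 0.16, 95% interval -0.25 to 0.42, edgeR adjusted p = 0.725) turned to -0.04 without either of these libraries.

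Mt2 (ENSMUSG00000031762; chromosome 8, 94172664 to 94173568, plus strand) read 93.8, 134.0, 146.1 and 149.8 CPM in WT and 173.8, 198.1, 134.0 and 213.8 CPM in Rank-knockout. Of the Rank-knockout libraries, replicates 1, 2 and 4 lay above all WT libraries and replicate 3 lay among them. The log2 difference was 0.46 (SE 0.17, 95% interval 0.09 to 0.83, edgeR adjusted p = 0.0567). It passed the threshold without Rank-knockout replicate 3, at 0.57 (edgeR adjusted p = 0.0284), and under 3 other ways of scaling or filtering, at 0.50 to 0.66 (edgeR adjusted p = 0.00793 to 0.0209). These 3 settings also raised the median of all genes, by 0.20, 0.13 and 0.10, about as much as they raised Mt2 or more. In the promoters printed above, Mt2 holds 3 of its matches before the start and Mt1 holds 1. With the bases after the start added they hold 4 and 3, and a link between matches and levels was not tested.

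Together Mt1 and Mt2 took 0.0282% ± 0.0044 of all counts in WT, from 0.0217% to 0.0308%, and 0.0388% ± 0.0058 in Rank-knockout, from 0.0307% to 0.0440% (SD, n = 4). A share of all counts is the scale of library totals, on which the median log2 difference of all genes was 0.22. The genotypes touched only between WT replicate 4 (95% Wilson interval 0.0282% to 0.0336%) and Rank-knockout replicate 3 (0.0284% to 0.0332%), intervals that cover counting error only. Tags of Mt1 per tag of Mt2 were 1.34 ± 0.12 in WT and 1.05 ± 0.23 in Rank-knockout, and overlapped.

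Mtf1 (ENSMUSG00000028890; chromosome 4, 124802104 to 124849800, plus strand), the zinc sensor itself, read 41.1, 38.3, 50.5 and 65.9 CPM in WT and 37.8, 38.3, 28.3 and 50.3 CPM in Rank-knockout. The genotypes overlapped, with a log2 difference of -0.31 (SE 0.21, 95% interval -0.76 to 0.13, edgeR adjusted p = 0.273).

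No exon of the 10 genes overlaps an exon of another gene on the same strand. No stretch of 50 bases within the last 400 bases of their transcripts occurs in transcripts of another gene, so tags of Mt1 and Mt2 can be told apart. Exons on the opposite strand overlap Slc30a1, Slc30a10, Mt2 and Mtf1, and counting was strand-specific.

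Beyond the 10 genes, 45 other genes of zinc and copper handling were examined, of which 30 were tested. Of these, 7 were lower, 3 higher and 20 not called, beside 14.6% lower and 15.8% higher among all genes tested, with a median log2 difference of -0.22. The 7 became 4 without WT replicate 4, without Rank-knockout replicate 1 or 3, with library totals and without the 50 most abundant genes. Genotypes did not overlap in 8 of the 30, against 28.8% of all genes.

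Of the other 11 ZIP genes, 6 were tested, 0 were lower and 1 was higher, beside 14.6% and 15.8% of all genes tested. edgeR gave 1 lower and 2 higher at an unadjusted p under 0.05, and DESeq2 called 0 lower and 1 higher. Slc39a8, a manganese and zinc importer, rose by a log2 difference of 1.37 (SE 0.38, edgeR adjusted p = 0.0120). Its levels were low, 5.48, 2.79, 4.78 and 2.66 CPM in WT and 13.6, 10.9, 4.95 and 8.17 CPM in Rank-knockout, and they overlapped between WT replicate 1 and Rank-knockout replicate 3. Without Rank-knockout replicate 1 it missed the threshold, at 1.12 (edgeR adjusted p = 0.0548). Slc39a1, Slc39a9 and Slc39a11, importers found in many tissues, had log2 differences of -0.29, -0.38 and 0.16 and did not pass. Slc39a9 passed without WT replicate 2, at -0.54 (edgeR adjusted p = 0.00876).

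Of the other 8 ZnT genes, 6 were tested and 2 fell, beside 14.6% of all genes tested. Slc30a2, which loads zinc into vesicles, read 86.3, 107.7, 85.4 and 86.5 CPM in WT and 50.5, 57.4, 57.5 and 58.5 CPM in Rank-knockout. The genotypes lay well apart, at a log2 difference of -0.72 (SE 0.15, edgeR adjusted p = 0.00206). Slc30a4, another vesicular transporter, differed by -0.73 (SE 0.23, edgeR adjusted p = 0.0246). It read 45.2, 34.9 and 38.7 CPM in Rank-knockout replicates 1 to 3 but 79.6 CPM in replicate 4, inside the WT range of 67.9 to 90.5. It kept its call in the fits that dropped WT replicate 2 or Rank-knockout replicate 4, and missed the threshold in the other 6, at -0.73 to -0.60 (edgeR adjusted p up to 0.0735). It also missed it with library totals, at -0.54 (edgeR adjusted p = 0.0834), and without the 50 most abundant genes, at -0.60 (edgeR adjusted p = 0.0567). Slc30a5, Slc30a6 and Slc30a9, which serve the secretory pathway and organelles, had differences of -0.33, -0.20 and -0.26 and did not pass. Mt3 and Mt4, the metallothioneins of brain and squamous epithelium, had at most 4 counts in any library and were not tested.

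**Figure D3:**
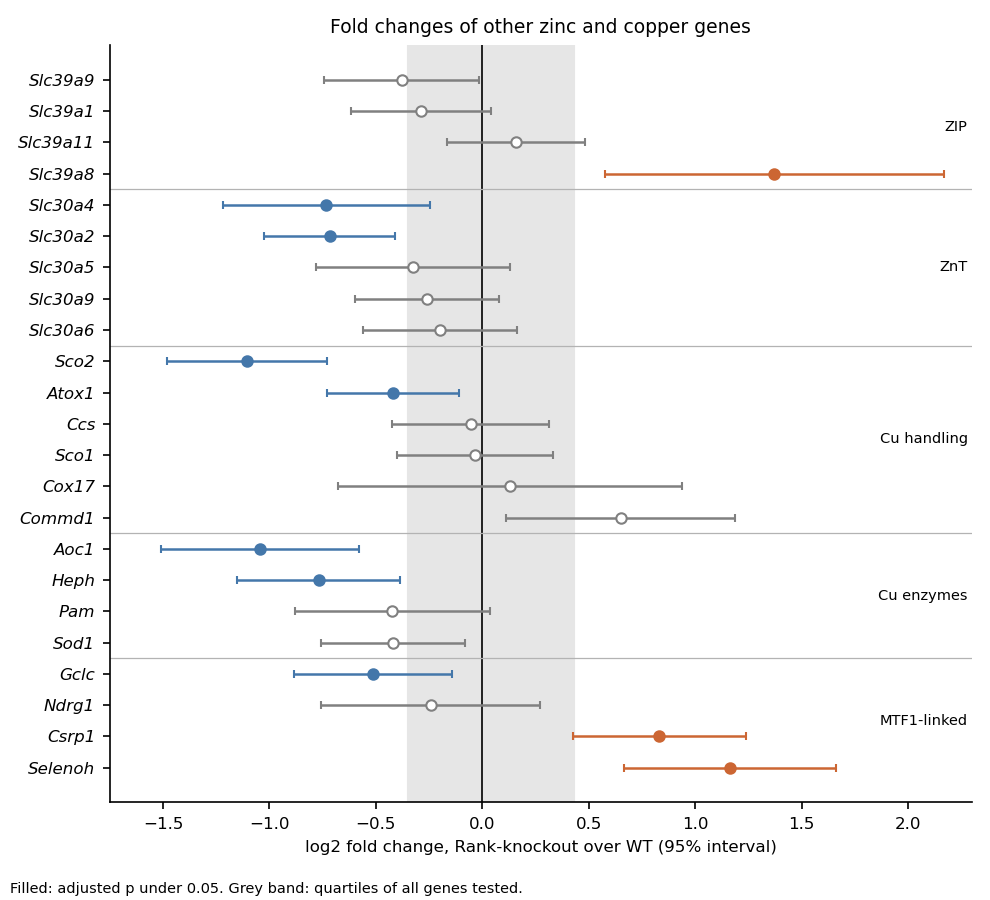
Log2 fold changes, Rank-knockout over WT with 95% intervals, of the other zinc and copper genes that passed the test or had a mean of at least 20 CPM, ordered by group. Filled points passed an adjusted p of 0.05 and the grey band spans the quartiles of all genes tested. Slc39a8, Selenoh, Csrp1 and the open point of Commd1 lie to the right of the band. Filled points of Sco2, Aoc1, Heph, Slc30a2, Slc30a4, Gclc and Atox1 and open points of Pam, Sod1 and Slc39a9 lie to its left, while Ccs and Sco1 sit near 0 and change sign with scaling by library totals.

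In copper transport, reduction and chaperoning, 10 of 13 genes were tested and 2 fell, beside 14.6% of all genes tested. Atox1, the chaperone that hands copper to ATP7A, read 60.3, 66.9, 71.7 and 63.9 CPM in WT and 46.9, 51.8, 45.0 and 52.7 CPM in Rank-knockout. All Rank-knockout libraries lay below WT, with a log2 difference of -0.42 (SE 0.15, edgeR adjusted p = 0.0387). With 1 library dropped, Atox1 stayed past the threshold in 2 of 8 fits, those that left out WT replicate 1 or else Rank-knockout replicate 4. It missed it in the other 6, at -0.45 to -0.38 (edgeR adjusted p up to 0.102). It also missed it with library totals, at -0.22 (edgeR adjusted p = 0.245), without the 50 most abundant genes, at -0.29 (0.134), with no filter, at -0.38 (0.157), and thinned to the shallowest library, at -0.42 (0.0583). Sco2, a copper protein of cytochrome c oxidase assembly, fell by 1.11 on the log2 scale (SE 0.18, edgeR adjusted p = 0.000556), from 88.5 ± 8.18 to 41.6 ± 10.4 CPM (SD, n = 4). Its exons share 856 bases with Tymp on the same strand, so its tags are uncertain.

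Of the copper chaperones that did not pass, Ccs, which loads SOD1, and Sco1 had differences of -0.05 and -0.03 that turned to 0.14 and 0.17 with scaling by library totals, about the 0.20 by which that scaling moved the median of all genes. Commd1, a copper trafficking protein, differed by 0.65 (SE 0.25, edgeR adjusted p = 0.0638), and read 13.9 CPM in WT replicate 2 beside 32.9 to 38.9 CPM in the other WT libraries, with no overlap between genotypes. Without WT replicate 2 the difference was 0.34 (edgeR adjusted p = 0.151), without WT replicate 3 it was 0.80 (edgeR adjusted p = 0.0410), and with library totals it was 0.84 (edgeR adjusted p = 0.0199). Commd1 also passed without the 50 most abundant genes, at 0.78 (edgeR adjusted p = 0.0308), with no filter, at 0.69 (edgeR adjusted p = 0.00717), and in limma-voom, at 0.83 (adjusted p = 0.0344), but not in DESeq2, at 0.62 (adjusted p = 0.0742). Cox17 differed by 0.13 (SE 0.37), and by -0.21 without WT replicate 2 and -0.11 without Rank-knockout replicate 4. Commd1 and Cox17 each share same-strand exon bases with another gene model.

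Of the 7 copper-dependent enzymes, 4 were tested and 2 fell, beside 14.6% of all genes tested. The median log2 difference of the 4 was -0.60. Aoc1, the diamine oxidase that breaks down histamine, read 1848, 1950, 2390 and 2691 CPM in WT and 611.3, 1125, 1156 and 1418 CPM in Rank-knockout. Rank-knockout replicate 1 was the lowest, and no library crossed between genotypes (log2 difference -1.04, SE 0.22, edgeR adjusted p = 0.00282). Heph, the copper ferroxidase of basolateral iron export, read 149.3, 103.9, 175.5 and 145.8 CPM in WT and 70.3, 88.2, 70.6 and 106.0 CPM in Rank-knockout. WT replicate 2 and Rank-knockout replicate 4 overlapped, at a log2 difference of -0.77 (SE 0.18, edgeR adjusted p = 0.00517). Sod1, the cytosolic superoxide dismutase, did not overlap between genotypes and missed the threshold in edgeR (log2 difference -0.42, SE 0.16, edgeR adjusted p = 0.0562) but not in DESeq2 (adjusted p = 0.0329). Pam, which amidates peptide hormones, differed by -0.42 (edgeR adjusted p = 0.149).

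Of 4 other genes linked to MTF1, 2 rose and 1 fell, beside 15.8% higher and 14.6% lower among all genes tested. Selenoh, a nuclear selenoprotein, read 22.6, 21.0, 10.2 and 13.98 CPM in WT and 44.4, 37.9, 44.5 and 29.5 CPM in Rank-knockout, a log2 difference of 1.16 (SE 0.24, edgeR adjusted p = 0.00207). Csrp1, a LIM domain protein, read 25.4, 44.1, 36.9 and 27.96 CPM in WT and 70.9, 57.8, 64.3 and 51.1 CPM in Rank-knockout, a log2 difference of 0.83 (SE 0.19, edgeR adjusted p = 0.00458). Neither gene overlapped between genotypes. Gclc, the rate-limiting enzyme of glutathione synthesis, fell by 0.51 on the log2 scale (SE 0.18, edgeR adjusted p = 0.0361), with overlapping libraries. Gclc kept its call in the fits that dropped WT replicate 3 or Rank-knockout replicate 2 and missed the threshold in the other 6 (edgeR adjusted p up to 0.101). Over these 8 fits its difference ran from -0.63 to -0.44. Gclc also missed the threshold with library totals (-0.32, edgeR adjusted p = 0.171), without the 50 most abundant genes (-0.39, edgeR adjusted p = 0.104) and with no filter (-0.48, edgeR adjusted p = 0.0561). Ndrg1 differed by -0.24 (edgeR adjusted p = 0.475).

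The targeted gene, depth and markers of cell types bear on these values. Tnfrsf11a had 113, 196, 61 and 111 counts in WT and 128, 112, 79 and 179 in Rank-knockout, or 60.7 ± 17.7 against 38.0 ± 8.64 CPM (SD, n = 4; log2 difference -0.67, edgeR adjusted p = 0.0321). A 3′ tag need not lie in the deleted part, so these counts do not check the labels. Total counts ran from 1530781 to 4335653 in WT and from 2103716 to 4321154 in Rank-knockout, and WT replicate 2 was the deepest. Without WT replicate 2, 4 of the 10 genes were lower and 0 higher.

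Among all genes tested, 14.6% were lower and 15.8% higher. Of 14 villus enterocyte markers, 13 were lower (14 in DESeq2, 12 in limma-voom). Summed, the 14 ran from 31494 to 43525 CPM in WT and from 14673 to 20432 CPM in Rank-knockout. All 15 replication and cell cycle genes were higher (14 in DESeq2 and in limma-voom), at 473.3 to 741.5 against 1066 to 1841 CPM summed. Of 7 epithelial identity genes 3 were lower and 1 higher, of 6 crypt base stem genes 3 were higher, of 8 Paneth genes 4 were higher (6 in DESeq2, 1 in limma-voom), and of 7 goblet genes 4 were lower and 2 higher. Proximal and distal small intestine genes were lower in 3 of 5 and 1 of 3 tested. No gene of the enteroendocrine (6 tested), tuft (3), T cell (5) or B and plasma cell (1) lists was called by edgeR or DESeq2, with 3 at an unadjusted p under 0.05. T cell markers summed to 172.1 to 264.3 CPM in WT and 117.4 to 188.0 in Rank-knockout, B and plasma cell markers to 31.4 to 95.2 and 6.29 to 41.3, myeloid markers to at most 13.7 and stromal markers to at most 11.3. Adgre1, a macrophage marker, and Cd79a, a B cell marker, were at 0 in all libraries. Other members of these lists were present. Igha, of the B and plasma cell list, read 24.6 to 86.3 CPM in WT and 5.85 to 37.5 CPM in Rank-knockout. Lyz2, of the myeloid list, read 1.37 to 7.22 CPM across the libraries. In bulk samples, fewer cells of a type and less RNA per cell cannot be told apart, and the part of cell composition in the fall of the transporters was not tested.

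To set the 10 genes against villus enterocytes within each library, the mean log2 CPM of the 14 villus markers, which differed by -1.09 between genotypes, was subtracted from each gene's log2 CPM. On this relative scale Slc39a4 differed by 0.06 and Slc30a10 by 0.05, and both overlapped between genotypes, so their CPM differences were about as large as that of the markers. Slc31a1 and Atp7a were 0.48 and 0.47 higher relative to the markers. Mtf1, Slc39a14, Slc39a5 and Slc30a1 were 0.76, 0.67, 0.77 and 0.81 higher, and Mt1 and Mt2 were 1.18 and 1.55 higher. Relative to the markers 8 of the 10 genes were higher without overlap, but so were 75.2% of the 9841 genes tested that are not villus markers, whose median difference was 1.12. Mt2 lay above this median, Mt1 lay close to it, and the other 8 genes lay below it. With 1 library left out, Mt1 ran from 0.95 without Rank-knockout replicate 1 to 1.33 without WT replicate 2.

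**Figure D4:**
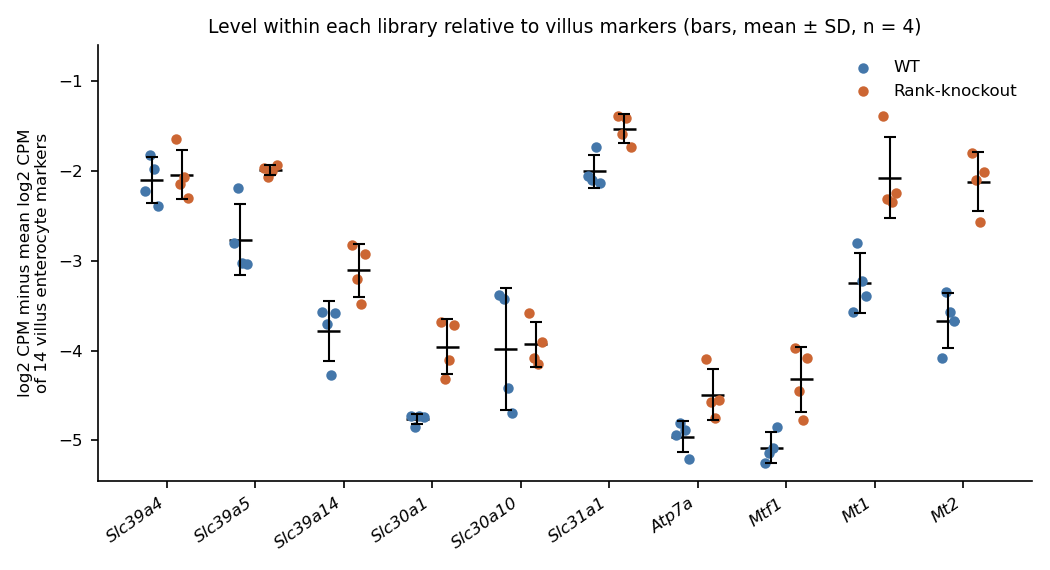
Log2 CPM of each zinc and copper gene minus the mean log2 CPM of 14 villus enterocyte markers in the same library, WT in blue and Rank-knockout in orange, with bars for the mean ± SD of 4 libraries. Slc39a4 and Slc30a10 overlap between genotypes, and the other 8 genes lie higher in Rank-knockout, with the widest gap for Mt2.

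The genes whose profile over the 8 libraries was most like that of Slc39a4, among 3641 genes of at least 50 CPM on average, were Tmem220, Sec14l2 and Krt20. Their root mean square differences from Slc39a4 in mean-centred log2 CPM were 0.07, 0.09 and 0.10, and their log2 differences between genotypes were -0.995, -1.10 and -0.96. Krt20 is a keratin of differentiated villus cells. For Mt1 the nearest were Zdhhc3, Dnm1l and Tstd2, at 0.11, 0.11 and 0.12, with log2 differences of 0.08, 0.10 and 0.06. These likenesses rest on 8 libraries of 2 genotypes and are descriptions.

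**Figure D5:**
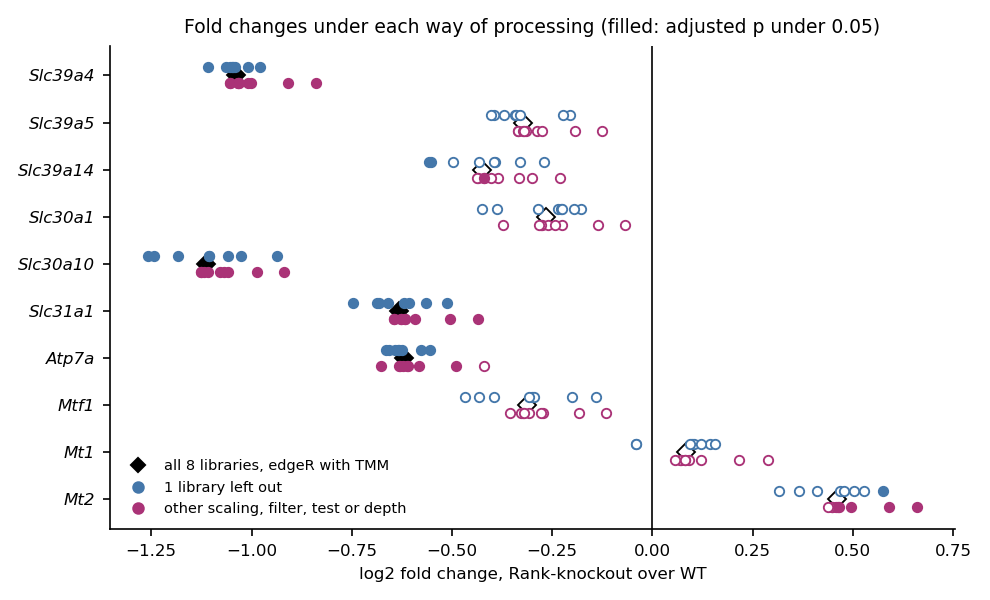
Log2 fold changes of the 10 genes as reported (diamonds), with 1 library left out (blue) and under other scaling, filters, tests or depth (purple). Filled marks passed an adjusted p of 0.05. Slc39a4, Slc30a10 and Slc31a1 are filled throughout, Atp7a has 1 open mark, and Mt1 crosses 0 when WT replicate 1 or Rank-knockout replicate 1 is left out.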

How the data were processed

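The deposited table held raw read counts per gene, which the authors made from QuantSeq 3′ mRNA-seq libraries of 4 WT and 4 Rank-knockout mice. Per the study's methods, reads were trimmed with BBDuk, bowtie2 removed those from adapters, phiX, mitochondrial and ribosomal DNA, the rest were aligned to GRCm38 (mm10 per the labels) with STAR, and featureCounts counted them per gene by strand. The authors tested the counts with DESeq2. No molecular identifier is named, so each PCR copy can add a read, and intervals on counts cover counting error only.

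Genes were tested here with edgeR 4.0.16 in R 4.3.3 by its robust quasi-likelihood test, with filterByExpr, TMM scaling and genotype as the only term. Standard errors came from the F statistic. Symbols, for 54409 of 54532 identifiers, and positions were taken from GENCODE M21. No count row was a total. Total counts of 1530781 to 4335653 per library set the precision, so genes of few counts are measured less precisely. The labels call each sample a mouse, and replicate pairs differed by more than sampling noise. Log2 CPM used a prior count of 2. The fit was tested on simulated data.

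The 10 genes, the wider lists and the marker lists were chosen with earlier results of these data known. The text names the 10 genes, Tnfrsf11a, the metallothioneins Mt3 and Mt4, and the 3 nearest profiles of Slc39a4 and Mt1. It also names each other zinc or copper gene past the threshold or with a mean of at least 20 CPM. Adgre1 and Cd79a, at 0 throughout, and Lct, Fabp6, Slc10a2, Igha and Lyz2 were named after their values were seen. Alternatives were DESeq2 1.42.0 and limma-voom (limma 3.58.1) as tests, RLE, library totals and totals leaving out the 50 most abundant genes as scalings, no filter or a minimum mean of 5 CPM, a replicate block, and leaving out single libraries. Relative levels were also taken with a prior count of 0.5. Thinning to the shallowest library, and the ratios of Slc39a4 to Slc39a14 and Slc30a10, were chosen after seeing the data.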

Additional observations from a re-analysis of the deposited data

Results flagged for a closer look

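Among 76 sets of 4 values examined, 7 held a library far from the other 3, where chance gives about 1 in 20. Slc39a4 in Rank-knockout replicate 4 read 175.8 CPM, below 189.7 to 192.5 CPM in the others. Slc30a2 read 107.7 CPM in WT replicate 2, above 85.4 to 86.5 CPM, and 50.5 CPM in Rank-knockout replicate 1, below 57.4 to 58.5 CPM. Slc30a4 read 67.9 CPM in WT replicate 2, below 87.0 to 90.5 CPM. Gclc read 50.5 CPM in WT replicate 3, below 69.2 to 71.5 CPM. The total count of WT replicate 2, at 4335653, lay above 1530781 to 1616024 in the other WT libraries. The Mt1 and Mt2 share of counts in WT replicate 1, at 0.0217%, lay below 0.0300% to 0.0308% in the others.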

How the results depend on the processing

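Of 170 recomputed log2 differences of the 10 genes, 159 kept their direction and their side of the threshold, 1 lost its call, 8 gained one and 2 changed sign. Scaling by library totals moved the median of all genes by 0.20, leaving out the 50 most abundant genes by 0.13 and no filter by 0.10. The higher share of calls went from 52.0% to 74.9% and 68.1% under the first 2. With library totals 859 genes were lower and 2566 higher, against 1438 and 1555. Leaving out 1 library gave 1080 to 1560 lower and 1046 to 1699 higher. Of the 10 genes, 3 to 5 were lower (4 to 5 with a library left out) and 0 to 1 higher, the 1 being Mt2 under library totals (0.66), without the 50 most abundant genes (0.59), with no filter (0.50), with the replicate block (0.46) and without Rank-knockout replicate 3 (0.57). Mt2 ran from 0.32 to 0.57 with a library left out. Atp7a was -0.42 with library totals (edgeR adjusted p = 0.0514), and -0.67 to -0.56 with a library left out. Mt1 was -0.0415 without WT replicate 1 and -0.04 without Rank-knockout replicate 1, and reached 0.16, and Slc39a14 ran from -0.56 to -0.27 with a library left out. Wider genes called lower fell from 7 to 4 with library totals and without the 50 most abundant genes, and were 4 to 6 with a library left out, 4 without WT replicate 4 or Rank-knockout replicate 1 or 3. Wider genes called higher were 2 to 4. Ccs turned to 0.14 with library totals, 0.0738 without the 50 most abundant genes and 0.0826 when thinned to the shallowest library, and ran from -0.14 to 0.0775 with a library left out. Sco1 turned to 0.17 and 0.10 under the first 2 and ran from -0.15 to 0.0838 with a library left out. Cox17 ran from -0.21 to 0.33 with a library left out. The cause of these changes was not tested.

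Replicate numbers are shared between genotypes. Correlations of deviations between libraries of the same number ran from -0.14 to 0.32, and 2 of 4 WT and 2 of 4 Rank-knockout libraries matched their own number best, so the samples share only a number. With the replicate block 5 of the 10 genes were lower, Slc39a14 among them at -0.42 (edgeR adjusted p = 0.0289), and Mt2 was higher at 0.46 (edgeR adjusted p = 0.0333). Of the wider genes, Sod1 then passed at -0.41 (edgeR adjusted p = 0.0457) and Commd1 at 0.69 (edgeR adjusted p = 0.0337).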
